A study of Mus musculus with 8 samples.

Results

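The 8 genes described here encode hormones, peptides and a histamine-making enzyme that are best known from the hypothalamus, together with an adapter and a receptor subunit expressed there. They are Oxt, Avp, Trh, Adcyap1, Nts, Hdc, Irs4 and Gabrq. Each was read by the probe set that the platform annotation gives to that symbol alone (1 probe set per gene), out of 35557 probe sets on the array. All 8 passed a brightness filter that kept 15791 named probe sets, those with a single symbol standing for 13524 genes. The genes were picked with results of these same arrays known. Hdc, Oxt, Avp, Irs4, Adcyap1 and Nts were picked from MPTP against control, and Trh and Oxt from hip needling against MPTP. The values behind the choice of Gabrq are not recorded. Levels and differences in those 2 comparisons are therefore a description without a test. Each of the other 4 comparisons takes at least 1 group from them, so its p-values for the 8 genes are not independent of the choice and are no support for a difference.

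RNA came from thalamic tissue of both sides of the brain of 8 male C57BL/6 mice, an inbred strain, 6 weeks old at the start, and was hybridised to Affymetrix whole-transcript arrays, 1 mouse to an array. The 4 groups held 2 mice each, and every mouse was injected into the abdominal cavity once a day for 4 weeks. Control mice received saline. Mice of the MPTP group received MPTP, a neurotoxin taken up by dopaminergic neurons, given here at 20 mg/kg as a chronic parkinsonism model. Acupoint mice received the same MPTP and were needled at the leg and foot points GB34 and LR3 in 14 sessions 48 hr apart, and hip-needled mice received MPTP and were needled at both hips, away from these points, on the same schedule. No group was needled without MPTP. The control, MPTP and needled mice are separate animals, so the spread behind each p-value is that between group mates, estimated jointly from the 4 groups.

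The hypothalamus lies directly under the thalamus. Magnocellular neurons of its paraventricular and supraoptic nuclei make oxytocin and vasopressin and release them from the posterior pituitary, while paraventricular neurons that make thyrotropin-releasing hormone drive the thyroid axis through the anterior pituitary. The neurons that make histamine for the whole brain sit in the tuberomammillary nucleus of the posterior hypothalamus. PACAP (from Adcyap1) and neurotensin (from Nts) are made in the hypothalamus and in several other regions, so these genes do not mark it alone.

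Arrays differed in a way the groups do not explain. MPTP mouse 1 and hip-needled mouse 1 were close to each other (r = 0.982 over the tested probe sets) but correlated at only 0.905 to 0.936 with the remaining 6, whose own correlations were 0.981 to 0.995. Where leaving out such an array moved a difference by over 1.5 times or turned its sign, the value without it is given. Median log2 levels of the arrays lay between 6.18 and 6.29. Precision is limited by the small number of arrays. Thalamic neuron markers were bright on all arrays (Prkcd at 10.74 to 11.94, Tcf7l2 at 9.39 to 10.53), and hypothalamic markers were measured beside them, with Otp, a transcription factor of neuroendocrine neurons, at 6.91 to 7.46 and Nkx2-1, a regional factor of the ventral hypothalamus, at 5.35 to 6.33.

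From highest to lowest, the group means ran control, hip-needled, MPTP, acupoint in 7 of the 8 genes. In the remaining gene, Trh, the hip-needled mean was above the control mean and the rest of the order was the same. All 8 genes were lower in MPTP and in acupoint mice than in controls, and all 8 had a higher mean in hip-needled than in MPTP mice. Because whole tissue was measured, fewer cells of a type and less RNA per cell cannot be told apart.

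**Figure D1:**
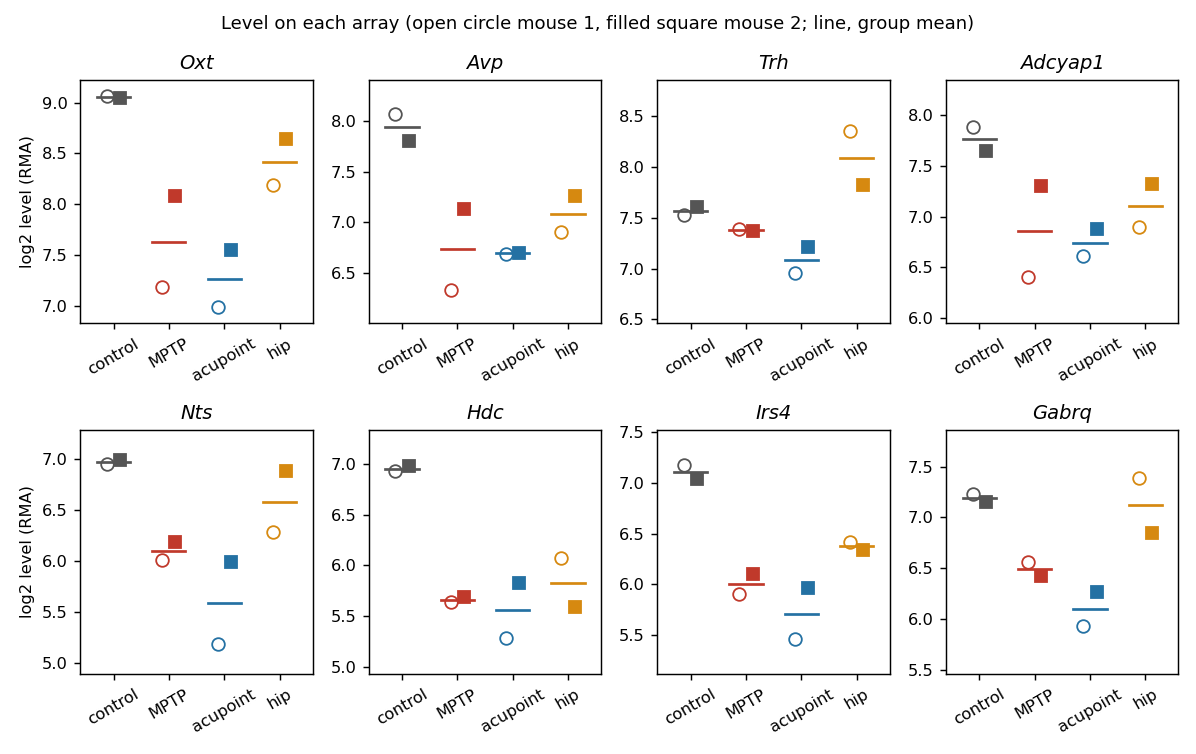
Log2 levels (RMA, vertical axis) of the 8 genes on each of the 8 arrays by group (horizontal axis), open circles for mouse 1, filled squares for mouse 2 and lines for group means; each panel has its own range. Controls lie above MPTP and acupoint mice in every panel, and the hip-needled mean lies between the control and MPTP means in every panel but that of Trh, where it is the highest.

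Oxt, the precursor of oxytocin, stood at 9.07 and 9.05 in controls, 7.18 and 8.08 in MPTP mice, 6.98 and 7.55 in acupoint mice and 8.19 and 8.65 in hip-needled mice (mouse 1 and mouse 2, log2 level). Controls were highest and almost equal, MPTP and acupoint mice overlapped each other, and hip-needled mice lay between controls and all of these. Group means were 9.06 ± 0.01, 7.63 ± 0.63, 7.27 ± 0.40 and 8.42 ± 0.32 (SD, n = 2).

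Avp, the precursor of vasopressin, the antidiuretic hormone, stood at 8.07 and 7.80 in controls, 6.34 and 7.13 in MPTP mice, 6.69 and 6.70 in acupoint mice and 6.90 and 7.26 in hip-needled mice. The controls were above all 6 MPTP-treated mice, and the 2 MPTP mice lay on either side of both acupoint mice and of hip-needled mouse 1. Oxt and Avp are neighbouring genes on mouse chromosome 2 with no other protein-coding gene between them in RefSeq, and their levels correlated at r = 0.92 over the 8 arrays (0.93 over the 6), which share their normalization and groups.

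Trh, the precursor of thyrotropin-releasing hormone, had the smallest difference between controls and MPTP mice of the 8 genes. It stood at 7.53 and 7.60 in controls, 7.39 and 7.37 in MPTP mice, 6.96 and 7.21 in acupoint mice and 8.36 and 7.82 in hip-needled mice. No pair of groups overlapped, and hip-needled mouse 1, one of the arrays that stood apart, was the highest of all. Trh was also the gene least like the others, with r between 0.23 (Avp) and 0.85 (Gabrq) over the 8 arrays and between 0.45 (Hdc) and 0.93 (Nts) over the 6.

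The promoters of these 3 hormone genes are shown because Oxt and Avp lie side by side and went together, while Trh followed them less closely. Its r was 0.52 with Oxt and 0.23 with Avp over the 8 arrays. Over the 6 without the arrays that stood apart it was 0.88 and 0.66. Each run is the 200 bases before the start of transcription, 5′ to 3′, from RefSeq on build GRCm38.p6 (Oxt, chr2:130575969-130576168, plus strand; Avp, chr2:130582589-130582788, minus strand; Trh, chr6:92244651-92244850, minus strand). Capitals mark TGACCT, the motif that nuclear hormone receptors bind. They also mark CATAAA, a run resembling the TATA box. Both were searched on either strand.
Oxt: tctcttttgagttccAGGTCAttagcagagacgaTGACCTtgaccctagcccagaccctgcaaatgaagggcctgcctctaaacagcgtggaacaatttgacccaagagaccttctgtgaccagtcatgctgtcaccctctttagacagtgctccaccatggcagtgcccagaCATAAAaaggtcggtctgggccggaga
Avp: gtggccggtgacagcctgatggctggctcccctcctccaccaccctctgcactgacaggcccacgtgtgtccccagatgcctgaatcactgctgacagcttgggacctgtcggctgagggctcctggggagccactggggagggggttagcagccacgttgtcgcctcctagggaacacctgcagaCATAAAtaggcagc
Trh: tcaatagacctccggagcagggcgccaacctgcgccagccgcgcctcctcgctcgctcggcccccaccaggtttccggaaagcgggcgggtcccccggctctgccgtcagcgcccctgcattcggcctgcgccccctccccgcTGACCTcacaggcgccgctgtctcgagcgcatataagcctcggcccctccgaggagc
TGACCT was found in Oxt and Trh, starting 166 bases before the start in Oxt (with a match on the other strand at 185) and 57 before it in Trh, and in none of the other members. Of 32851 windows of this length before RefSeq starts, 11.4% hold it on either strand. CATAAA was found in Oxt and Avp, starting 27 and 14 bases before the start, and on the other strand in Hdc, against 8.51% of windows. Apart from TATAAA below, no other TATA-like run was searched. Trh holds such a run, catataag, which is left in small letters. TGACGT, the core of the cyclic AMP response element, was found in Adcyap1 (5.85% of windows), TATAAA in Adcyap1 (9.96%) and the E-box CACGTG in Avp and Irs4 (5.26%). TGANTCA with any base at N, a looser run than the AP-1 site, was found in Avp as tgaatca (5.48% of windows). It is not called an AP-1 site here. No matches overlapped in the members. These matches describe the letters and show no binding.

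The peptide genes followed the order of Oxt and Avp. Adcyap1, which encodes PACAP, a peptide that raises cyclic AMP in its target cells, stood at 7.89 and 7.64 in controls, 6.41 and 7.30 in MPTP mice, 6.61 and 6.88 in acupoint mice and 6.90 and 7.32 in hip-needled mice. Only controls stood clear of the rest. MPTP mouse 2 was level with hip-needled mouse 2, while MPTP mouse 1 was the lowest array. Of the 28 pairs among the 8 genes, Adcyap1 and Avp were the most alike over the 8 arrays, at r = 0.98 (0.97 over the 6, where Oxt and Gabrq were the most alike at 0.99).

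Nts, which encodes neurotensin, stood at 6.95 and 6.997 in controls, 6.01 and 6.19 in MPTP mice, 5.18 and 5.99 in acupoint mice and 6.28 and 6.89 in hip-needled mice. No groups overlapped, but the gaps were small between controls and hip-needled mice (0.07), between hip-needled and MPTP mice (0.09) and between MPTP and acupoint mice (0.02).

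Hdc encodes histidine decarboxylase, the enzyme that makes histamine, and it separated controls from every MPTP-treated mouse most widely. It stood at 6.93 and 6.98 in controls, 5.64 and 5.69 in MPTP mice, 5.29 and 5.83 in acupoint mice and 6.07 and 5.59 in hip-needled mice. The lowest control was 0.86 above the highest MPTP-treated mouse, and the 3 MPTP-treated groups overlapped one another. Its group means were 6.95 ± 0.03 in controls, 5.66 ± 0.03 in MPTP, 5.56 ± 0.38 in acupoint and 5.83 ± 0.34 in hip-needled mice (SD, n = 2).

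Irs4, an insulin receptor substrate that links insulin and growth factor receptors to downstream kinases and is found mainly in the hypothalamus, stood at 7.18 and 7.04 in controls, 5.91 and 6.10 in MPTP mice, 5.46 and 5.97 in acupoint mice and 6.42 and 6.34 in hip-needled mice. Here hip-needled mice lay between controls and the MPTP and acupoint mice, which overlapped. Gabrq, the theta subunit of the GABA-A receptor, stood at 7.23 and 7.15 in controls, 6.56 and 6.42 in MPTP mice, 5.93 and 6.27 in acupoint mice and 7.39 and 6.85 in hip-needled mice. Its hip-needled and control mice overlapped, MPTP mice were below them and acupoint mice were lowest. In Hdc, Nts and Irs4, 4 of the 64 values lay under 5.63, the mean level at which probe sets were left out as dim. Differences that rest on such low values are compressed, so their size is uncertain.

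The first comparison asked what MPTP did. The log2 differences of MPTP mice from controls were -1.43 ± 0.34 (SE) for Oxt, -1.29 ± 0.23 for Hdc, -1.20 ± 0.28 for Avp, -1.11 ± 0.20 for Irs4, -0.91 ± 0.31 for Adcyap1, -0.88 ± 0.31 for Nts, -0.70 ± 0.22 for Gabrq and -0.18 ± 0.20 for Trh. The groups did not overlap in any of the 8 genes, a lower level in MPTP mice each time, where 20.4% of all tested probe sets were lower without overlap. The median over the 8 genes was -1.01, against -0.02 over all tested probe sets. Since 6 of the genes were picked from this comparison, nothing is read from these counts. Over all tested probe sets 0% passed by limma (836 at an unadjusted p under 0.05). The size depended on MPTP mouse 1 in several genes. Without that mouse the difference of Adcyap1 was -0.46, that of Avp -0.80 and that of Oxt -0.98, whereas that of Hdc was -1.27 and that of Irs4 -1.01.

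**Figure D2:**
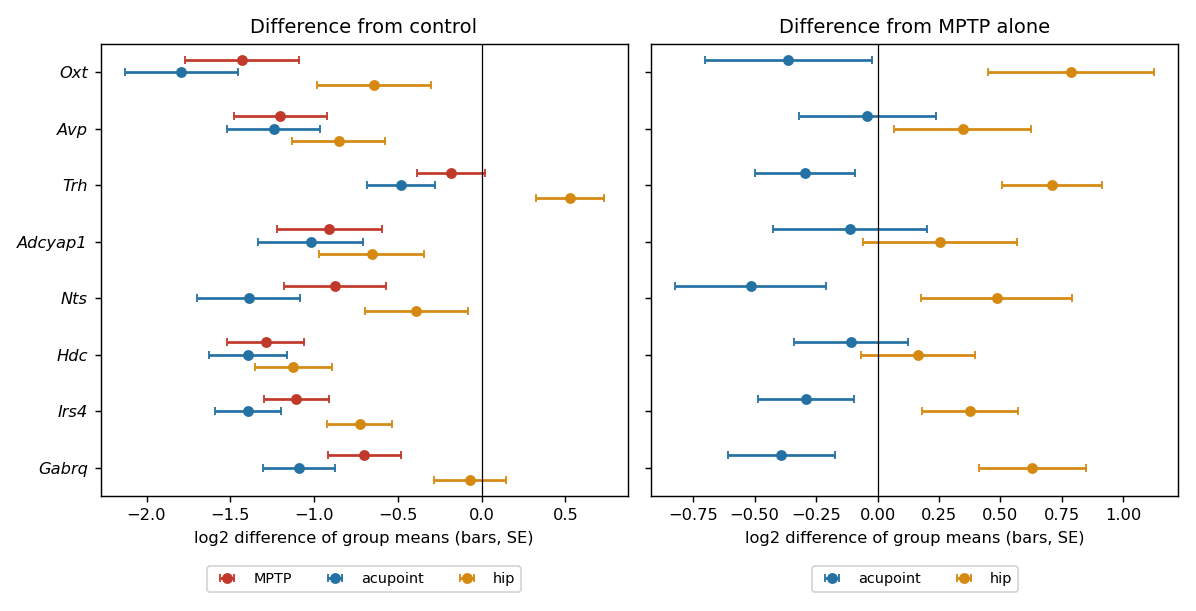
Differences of group means in log2 units (horizontal axis, bars showing the SE of the limma fit) for the 8 genes (vertical axis), from control on the left and from MPTP alone on the right. Acupoint values are the lowest in each gene, from -0.48 in Trh to -1.79 in Oxt relative to control, and hip-needled values are the highest.

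Acupoint mice were compared with controls to see where MPTP plus GB34 and LR3 needling left these genes. This comparison shares its controls with the one that chose most of the genes. All 8 were lower, without overlap, where 29.2% of tested probe sets were lower without overlap and 30.4% higher, and the median was -1.32 against -0.00 over all. Oxt differed by -1.79 ± 0.34 (SE), Hdc by -1.40 ± 0.23, Irs4 by -1.40 ± 0.20, Nts by -1.39 ± 0.31, Avp by -1.24 ± 0.28, Gabrq by -1.09 ± 0.22, Adcyap1 by -1.02 ± 0.31 and Trh by -0.48 ± 0.20. By limma over all 8 arrays none of the 8 passed an adjusted p of 0.05, nor did any probe set (0% called, 888 at an unadjusted p under 0.05). The adjusted p of the 8 genes ran from 0.179 for Irs4 to 0.895 for Trh. The call depended on which arrays set the spread. When only the control and acupoint arrays were fitted, which leaves out both arrays that stood apart, the adjusted p of the 8 genes by limma ran from 0.00469 for Avp to 0.0428 for Trh. In that fit 8.64% of tested probe sets passed, 3.31% as lower. The control arrays in it helped to choose at least 6 of the genes, so nothing is read from these p-values.

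Hip-needled mice had a smaller median difference from controls than the other MPTP-treated groups. It was -0.65, against -0.02 over all tested probe sets. Hdc differed from controls by -1.12 ± 0.23 (SE), Avp by -0.85 ± 0.28, Irs4 by -0.73 ± 0.20, Adcyap1 by -0.66 ± 0.31, Oxt by -0.64 ± 0.34 and Nts by -0.39 ± 0.31. Gabrq differed by -0.07 ± 0.22, with a change of sign (0.20) without hip-needled mouse 2, and Trh by 0.53 ± 0.20 in the other direction. In 6 genes the hip-needled mice were lower without overlap, where 22.3% of tested probe sets were, and in Trh they were higher (25.5% of probe sets). This comparison joins the controls and the hip-needled mice, both of which helped to choose the genes, so the counts are a description. The adjusted p of the 8 genes by limma ran from 0.586 for Hdc to 0.880 for Gabrq, and no probe set passed (0% called, 770 at an unadjusted p under 0.05). Without hip-needled mouse 1 the difference was -0.09 for Nts, -0.41 for Oxt, -0.34 for Gabrq and 0.26 for Trh, and without mouse 2 it was -0.69 for Nts and 0.79 for Trh.

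Against MPTP alone, hip-needled mice were higher in the mean of all 8 genes and without overlap in 5 of them, Oxt, Trh, Nts, Irs4 and Gabrq, where 5.67% of tested probe sets were higher without overlap and 6.74% lower. Trh and Oxt were picked from this comparison, so it too is a description. The differences were 0.79 ± 0.34 (SE) for Oxt, 0.71 ± 0.20 for Trh, 0.63 ± 0.22 for Gabrq, 0.49 ± 0.31 for Nts, 0.38 ± 0.20 for Irs4, 0.35 ± 0.28 for Avp, 0.25 ± 0.31 for Adcyap1 and 0.17 ± 0.23 for Hdc, with a median of 0.43 (0.01 over all). Over all probe sets, 0.0443% passed by limma in this comparison. Without MPTP mouse 1 the difference was 0.34 for Oxt and turned negative for Avp (-0.05) and Adcyap1 (-0.19). Without hip-needled mouse 1 it was 0.44 for Trh, 0.36 for Gabrq, 0.79 for Nts, 0.53 for Avp and 0.46 for Adcyap1, and it turned negative for Hdc (-0.07). Without MPTP mouse 2 it was 1.24 for Oxt, 0.75 for Avp and 0.70 for Adcyap1, and without hip-needled mouse 2 it was 0.18 for Nts and 0.41 for Hdc. The differences of Avp and Adcyap1 were smaller too without hip-needled mouse 2. Hip-needled mouse 1 lay at 6.90 in both, against MPTP means of 6.74 for Avp and 6.85 for Adcyap1.

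Acupoint and MPTP mice, which differ by the needling and the handling it took, were set against each other, and none of the 8 genes passed by limma (adjusted p from 0.889 to 0.975). The MPTP mice helped to choose the genes. Across all genes 0% of probe sets passed, with 216 at an unadjusted p under 0.05. The means were lower in all 8 genes, by a median of -0.29 (0.01 over all tested probe sets), with the largest differences in Nts (-0.52 ± 0.31, SE), Gabrq (-0.39 ± 0.22) and Oxt (-0.36 ± 0.34). Only Trh, Nts and Gabrq were lower without overlap, where 12.5% of probe sets were. The sign of 4 genes turned on 1 mouse. Without MPTP mouse 2 the difference was 0.08 for Oxt, 0.36 for Avp and 0.33 for Adcyap1, and without acupoint mouse 1 it was 0.16 for Hdc and 0.02 for Adcyap1. Without acupoint mouse 1 the difference of Nts was -0.11, that of Irs4 -0.03, that of Oxt -0.08, that of Gabrq -0.22 and that of Trh -0.17, and without MPTP mouse 1 those of Oxt, Adcyap1 and Avp were -0.81, -0.56 and -0.44.

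The needling sites were compared directly. Acupoint mice were lower than hip-needled mice in the mean of all 8 genes, with a median of -0.83 (0.01 over all tested probe sets), and without overlap in the 7 genes other than Hdc, where 18.0% of probe sets were lower without overlap. In Adcyap1 the gap between the groups was only 0.02. Oxt differed by -1.15 ± 0.34 (SE), Gabrq by -1.02 ± 0.22, Trh by -1.01 ± 0.20, Nts by -1.001 ± 0.31 and Irs4 by -0.67 ± 0.20, while Avp (-0.39 ± 0.28), Adcyap1 (-0.37 ± 0.31) and Hdc (-0.27 ± 0.23) differed less. The hip-needled mice helped to choose Trh and Oxt, and the basis for Gabrq is not known. The adjusted p by limma was 0.893 for each of the 8 genes, and no probe set passed (0% called, 299 at an unadjusted p under 0.05). Without hip-needled mouse 1 the difference was -0.03 for Hdc, -0.58 for Adcyap1, -0.57 for Avp and -0.74 for Trh. Without hip-needled mouse 2 it was -0.51 for Hdc, -0.15 for Adcyap1 and -0.21 for Avp. Without acupoint mouse 1 it was -0.004 for Hdc, -0.23 for Adcyap1, -0.60 for Nts and -0.41 for Irs4, and without acupoint mouse 2 it was -0.54 for Hdc.

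Other hypothalamic peptide genes were mostly lower than in controls as well. Of 18 tested genes of 24 listed, 13 were lower in MPTP mice than in controls (median -0.24), 16 in acupoint mice (-0.41) and 15 in hip-needled mice (-0.40), and 0 passed in any of the 6 comparisons by limma. Without overlap, 8 were lower in MPTP mice, 15 in acupoint mice and 11 in hip-needled mice, against 20.4%, 29.2% and 22.3% of all tested probe sets. Cartpt, the precursor of CART, an appetite-lowering peptide, differed from controls by -1.73 ± 0.56 (SE), -1.75 and -1.74 in MPTP, acupoint and hip-needled mice. Its controls stood at 8.97 and 8.93 and the MPTP-treated mice at 6.32 to 8.10, and the MPTP and hip-needled mice overlapped.

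Hcrt and Pmch, the orexin and melanin-concentrating hormone genes of the lateral hypothalamus, differed widely between the mice of each MPTP-treated group. Hcrt stood at 8.94 and 9.16 in controls, 6.85 and 9.46 in MPTP mice, 5.55 and 8.41 in acupoint mice and 7.31 and 9.95 in hip-needled mice. In each MPTP-treated group mouse 1 was far below mouse 2, and mouse 2 of the MPTP and hip-needled groups was above both controls. Both acupoint mice were below both controls in each of these genes, with a difference of -2.07 ± 1.30 (SE) for Hcrt and -2.06 ± 1.25 for Pmch. Pmch stood at 7.76, 6.61 and 8.36 in mouse 1 and 10.29, 9.58 and 10.62 in mouse 2 of the MPTP, acupoint and hip-needled groups, against 10.14 and 10.18 in controls. Among the 8 genes, mouse 1 was below mouse 2 in all 8 for acupoint mice, in 6 for MPTP mice and in 4 for hip-needled mice, by less in each case. The part of this split in the differences above was not tested.

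**Figure D3:**
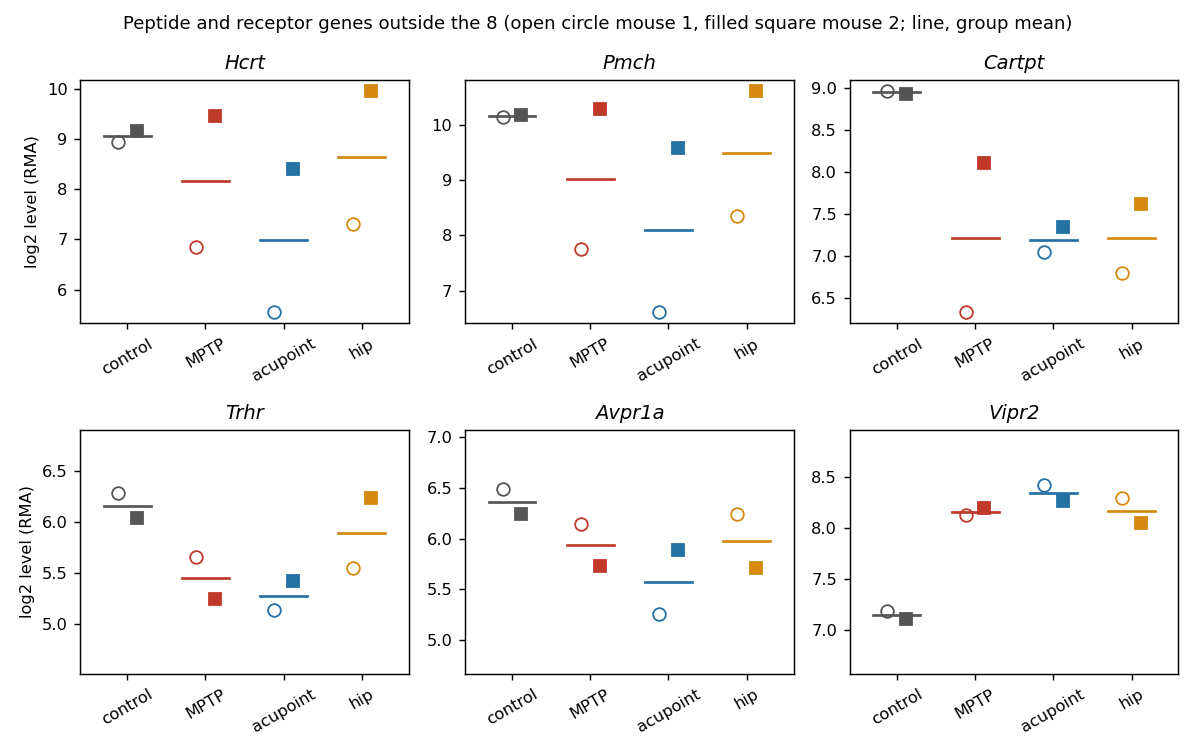
Log2 levels (RMA, vertical axis) of 6 peptide and receptor genes outside the 8 on each array by group (horizontal axis), with symbols as for the 8 genes and a range of its own for each panel. Hcrt and Pmch split between mouse 1 and mouse 2 of each MPTP-treated group, whereas Vipr2 is higher in all 6 MPTP-treated mice than in controls.

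Receptor genes for these peptides and for histamine lay on both sides of the controls. Of 13 tested receptor genes of 16 listed, 8 were lower and 5 higher in MPTP mice than in controls (median -0.14), and 0 passed in any comparison. Trhr, the receptor of thyrotropin-releasing hormone, stood at 6.28 and 6.04 in controls, 5.65 and 5.24 in MPTP mice, 5.13 and 5.42 in acupoint mice and 5.55 and 6.24 in hip-needled mice. The order of its means was like that of most of the 8 genes. Its mean over all arrays was 5.69, just above the filter level of 5.63, and its high controls raised that mean. The values 5.24, 5.13, 5.42 and 5.55 lay under the filter level, where differences are compressed. The order of its MPTP-treated groups is therefore uncertain. Avpr1a, a vasopressin receptor, differed from controls by -0.43 ± 0.29 (SE), -0.80 and -0.39 in MPTP, acupoint and hip-needled mice. The oxytocin receptor gene Oxtr lay between 5.61 and 6.26 on all arrays, with overlap of controls with MPTP and with acupoint mice.

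Vipr2, which binds PACAP as well as VIP, was the receptor gene farthest in the other direction. It stood at 7.19 and 7.11 in controls, 8.13 and 8.20 in MPTP mice, 8.42 and 8.27 in acupoint mice and 8.29 and 8.05 in hip-needled mice, differences of 1.01 ± 0.14 (SE), 1.20 and 1.02 (limma adjusted p = 0.293, 0.155 and 0.412). Adcyap1r1, the selective PACAP receptor gene, was lower in MPTP mice (-0.41 ± 0.17). Of the neurotensin receptors, Ntsr1 was lowest in acupoint mice (5.83 and 5.63, against 6.16 to 6.57 on the other 6 arrays), and Ntsr2, an astrocyte-rich receptor gene, was lower than in controls in all MPTP-treated groups (-0.57, -0.37 and -0.39). The histamine receptor genes differed from one another, with Hrh1 at 7.67 and 7.71 in controls and 6.98 to 7.65 in MPTP-treated mice, Hrh2 at 6.50 to 6.92 on all arrays, and Hrh3, the autoreceptor, at 8.30 and 8.45 in controls and 9.00 and 9.07 in acupoint mice.

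Genes for making and packing peptides were lower in 13 of 15 tested members in MPTP mice (median -0.34), in 12 in acupoint mice (-0.23) and in 11 in hip-needled mice (-0.18), with 0 past the threshold. Qpct, which forms the pyroglutamate end that thyrotropin-releasing hormone and neurotensin carry, differed from controls by -0.68 ± 0.36 (SE), -0.94 and -0.71. Scg2, a granin of secretory granules, differed by -0.58 ± 0.15 in acupoint mice. GABA-A subunit genes went both ways, with 6 of 11 lower in MPTP mice. Gabre, the epsilon subunit gene, differed by -0.69 ± 0.17 in MPTP, -0.90 in acupoint and -0.35 in hip-needled mice, while Gabra4 was higher by 1.05 ± 0.15 in acupoint mice. In acupoint mice 6 of 7 tested partners of insulin receptor substrates were higher, among them Igf1r (0.69 ± 0.19), where Irs4 was lower.

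Markers of regions and cell types differed between the groups along with the 8 genes. Hypothalamic transcription factor and region genes were lower than in controls in 23 of 26 tested members in MPTP mice (median -0.35), in 24 in acupoint mice (-0.44) and in 20 in hip-needled mice (-0.24), with 0 past the threshold. Their mean log2 level was 7.32 to 7.35 in controls, 6.91 to 7.07 in MPTP mice, 6.85 to 6.88 in acupoint mice and 7.07 to 7.23 in hip-needled mice, the same order as in most of the 8 genes. Dlk1, an imprinted gene of neuroendocrine neurons, differed from controls by -0.81 ± 0.25 (SE), -1.60 and -0.58, and Baiap3 by -1.19 ± 0.30, -1.07 and -0.58. Among those that went the other way, Lhx9 was higher than in controls by 0.60 ± 0.27, 0.97 and 0.60, without overlap each time. Pou3f2 was higher by 0.80 ± 0.62 in hip-needled mice. Sim1, the factor that specifies oxytocin, vasopressin and thyrotropin-releasing hormone neurons, stood at 6.17 and 5.84 in controls, 5.34 and 5.78 in MPTP mice, 5.27 and 5.20 in acupoint mice and 6.36 and 5.84 in hip-needled mice.

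Thalamic projection neuron genes went the opposite way. Their mean level over 16 genes was 9.01 to 9.14 in controls, 9.64 to 9.71 in MPTP mice, 9.98 to 9.99 in acupoint mice and 9.73 to 9.81 in hip-needled mice. Of these genes 14 were higher in MPTP mice, all 16 in acupoint mice and 15 in hip-needled mice than in controls (medians 0.69, 0.91 and 0.74). Midbrain dopaminergic genes, which MPTP is meant to affect, had mean levels of 8.49 to 8.64 in controls, 7.33 to 8.16 in MPTP mice, 6.98 to 6.99 in acupoint mice and 7.43 to 7.49 in hip-needled mice (9 tested of 11). Choroid plexus genes followed another order, at 7.03 to 7.04 in controls, 8.87 to 8.89 in MPTP mice, 8.30 to 8.77 in acupoint mice and 5.73 to 5.84 in hip-needled mice (10 tested of 12), and 4 of them, Kcnj13, Folr1, Sostdc1 and Cldn1, fell in hip-needled against MPTP mice (-5.49, -2.52, -2.90 and -1.83, limma adjusted p 0.0197 to 0.0394), where 0.0443% of all tested probe sets passed. With array weights, or with only these groups in the fit, no probe set passed. The list was chosen with earlier results of these data known, so nothing is read from these p-values. Habenula genes had mean levels of 7.18 to 7.20, 6.996 to 7.63, 7.28 to 7.80 and 6.83 in control, MPTP, acupoint and hip-needled mice, and tanycyte and ependymal genes 6.51 to 6.65, 6.42 to 6.86, 6.64 to 6.92 and 6.23 to 6.29. The part of the tissue taken at dissection in the differences of the 8 genes was not tested.

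**Figure D4:**
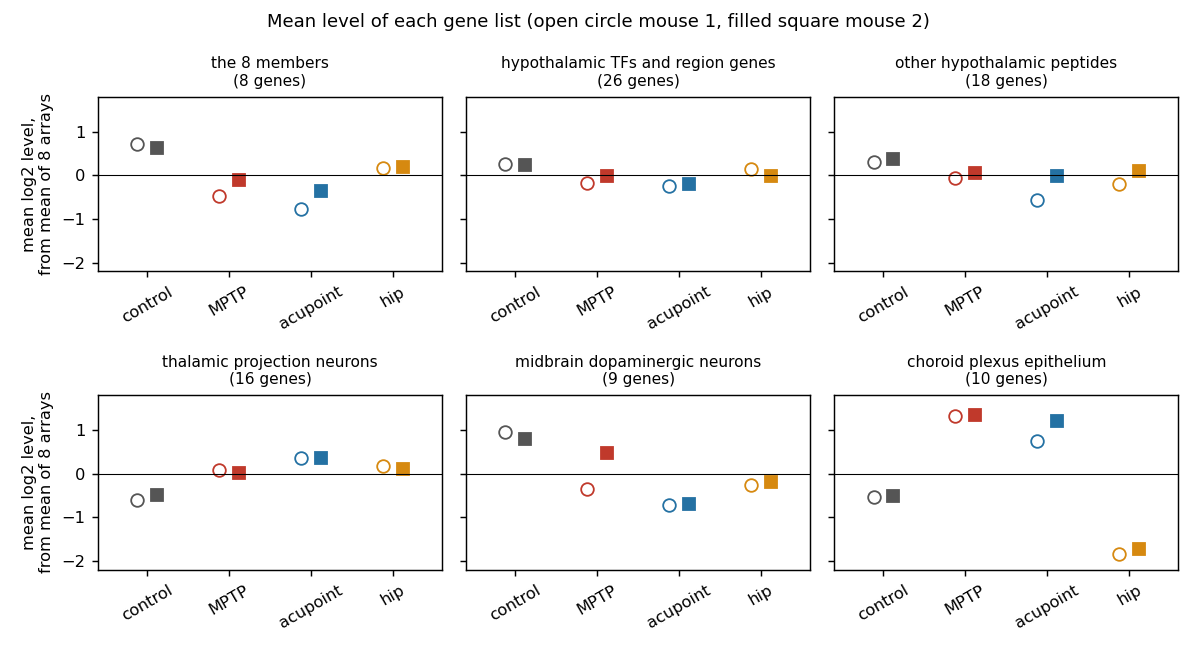
Mean log2 level of the 8 genes and of 5 gene lists on each array, as the difference from the list's mean over the 8 arrays (vertical axis), by group (horizontal axis), open circles for mouse 1 and filled squares for mouse 2. The means of the 8 genes and of the hypothalamic region genes are highest in controls and lowest in acupoint mice, and the thalamic genes are lowest in controls and highest in acupoint mice.

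Hdc is also expressed by mast cells, so their markers were examined. Of 11 mast cell genes 8 were under the brightness filter, among them the proteases Cma1 (4.39 to 4.77), Mcpt4 (3.37 to 3.62) and Cpa3 (3.02 to 3.50), which were dim on all arrays, controls included. The 3 that passed it were Kit, Gata2 and Slc18a2, with a mean level of 7.68 to 7.82 in controls, 7.01 to 7.21 in MPTP mice, 6.11 to 6.34 in acupoint mice and 6.80 to 7.08 in hip-needled mice. Kit, a growth factor receptor also made by neurons, differed from controls by 0.17, -0.91 and -0.01 in these groups, and Gata2, a transcription factor also made by neurons, by -0.30, -0.28 and -0.31. The part of mast cells in the level of Hdc was not tested. Slc18a2, the vesicular transporter that loads histamine as well as dopamine and other amines, stood at 9.24 and 8.95 in controls, 6.34 and 8.23 in MPTP mice, 6.06 and 5.34 in acupoint mice and 7.03 and 6.94 in hip-needled mice. Its MPTP mice split as those of Th did (6.15 and 8.75, with controls at 9.34 and 9.10), whereas those of Hdc did not. Of 5 tested genes of histamine storage and breakdown 3 were lower in MPTP mice. Hnmt, which inactivates histamine, lay between 7.69 and 8.21 on all arrays. Pituitary genes were dim, with Prl at 3.63 to 4.16 and 4 of 10 listed genes above the filter.

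The genes whose levels were most like the mean of the 8, by Pearson's r over the 8 arrays among 13516 other genes, were Klhl1 (0.97), Tmem91 (0.97), Naa38 (0.96), Pfkfb4, Rhof, Tmem200c, Snapc2, Kcnc4, Celf6 and Tmem255a (0.95 each), and at 0.94 to 0.99 over the 6 arrays for these 10 genes. Of all genes 0.392% had r over 0.9. Klhl1, an actin-binding protein of neurons, stood at 7.69 and 7.58 in controls, 6.23 and 6.91 in MPTP mice, 6.05 and 6.38 in acupoint mice and 6.76 and 6.84 in hip-needled mice, with the same order of groups. Snapc2 (0.98), Pfkfb4 (0.98) and Fxyd6 (0.97) were most like Oxt, and Radil (0.96), Ctbp2 (0.96) and Trp53i11 (0.95) most like Hdc. Abtb2 (0.96), Rpl19 (0.94) and Entpd6 (0.92) were most like Trh. These r values take no account of size. Snapc2 ran only from 6.82 to 7.02 over the 8 arrays and Abtb2 from 6.87 to 7.10, whereas Fxyd6 ran from 8.51 to 9.91. With so few arrays such values are a description only.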

How the data were processed

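Per the labels' protocols, 300 ng of total RNA per mouse was labelled for Affymetrix whole-transcript arrays. Expression Console and RMA are named in the submitters' processing notes, without versions. The deposited values lie on a log2 scale, and RMA compresses differences between dim probe sets.

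Probe sets with no gene symbol were left out, as were the dimmest 40% (mean log2 below 5.63), leaving 15791. limma 3.58.1 in R 4.3.3 fitted the 4 group means (lmFit, eBayes, 4 residual and 2.53 prior degrees of freedom), with Benjamini-Hochberg adjustment over all of them and a threshold of 0.05. Exact permutation with groups of 2 can reach no p below 0.333, so it was not run. The fit was tested on simulated data. Members, gene lists and alternatives were chosen with earlier results of these data known. The 14 lists hold 189 symbols, of which 180 matched a probe set of that symbol alone and 147 passed the filter. Named list genes are those past the threshold, those among the 3 largest non-overlapping differences of their list in a comparison, and a set of defining markers and receptors. Genes of like pattern are the 10 of highest r with the members' mean and 3 each for Hdc, Oxt and Trh. The fit did not pair mice by number. Deviations of same-numbered mice correlated at 0.82 between the MPTP and hip-needled groups, whose mouse 1 arrays stood apart. Between the other groups they correlated at -0.28 to 0.19.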

Additional observations from a re-analysis of the deposited data

How the results depend on the processing

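The alternatives were quantile normalization again, cyclic loess, an intensity trend with robust eBayes, array weights, fits of only the groups compared, the replicate block, the 6 arrays without MPTP mouse 1 and hip-needled mouse 1, and each mouse left out in turn. Several of these, such as the trend, the block or leaving out a mouse of another group, cannot move a difference of group means, so a kept sign is no sign of stability there. Of 120 values each, the sign turned in 4 in hip needling minus MPTP, 1 in hip needling minus control and 5 in acupoint minus MPTP. No other probe set with 1 symbol existed for any of the 8 genes, so that alternative was not run. The cause of the changes below was not tested.

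The median change of the 8 genes over the mice left out in turn ran from -1.26 to -0.79 in MPTP minus control, 0.31 to 0.64 in hip needling minus MPTP, -1.46 to -1.06 in acupoint minus control, -0.78 to -0.43 in hip needling minus control, -0.48 to -0.06 in acupoint minus MPTP and -1.03 to -0.51 in acupoint minus hip needling. In acupoint minus MPTP these single-mouse ranges were -0.81 to 0.085 for Oxt, -0.44 to 0.36 for Avp, -0.56 to 0.33 for Adcyap1 and -0.38 to 0.16 for Hdc, and in hip needling minus control -0.34 to 0.20 for Gabrq. With the 6 arrays the median was -0.79 in MPTP minus control and -0.43 in hip needling minus control.

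The number of probe sets past the threshold was 0 in 5 comparisons and 7 in hip needling minus MPTP. With the 6 arrays it was 57 in MPTP minus control, 23 in hip needling minus MPTP, 1365 in acupoint minus control (the same number as with only those groups, since the MPTP and hip-needled groups then hold 1 array each and control and acupoint mice alone supply the spread, each lone array being assumed to vary like them), 52 in hip needling minus control, 3 in acupoint minus MPTP and 21 in acupoint minus hip needling. With array weights it was 1738 in acupoint minus control, 2 in acupoint minus hip needling and 0 in hip needling minus MPTP, and fitting only the latter groups also gave 0. The weights were equal within each group, 3.95 in controls and 2.99 in acupoint mice against 0.25 in MPTP and 0.34 in hip-needled mice. They count controls and acupoint mice most, so this fit is not independent of the one with only those groups. In acupoint minus control the adjusted p of all 8 genes was under the threshold in each of these 3 fits, whose controls helped to choose the genes. With no brightness filter it was 1 in hip needling minus control and 2 in acupoint minus hip needling, and with unnamed probe sets included 4 in hip needling minus MPTP. Leaving out 1 mouse gave 0 to 5 in hip needling minus MPTP and 0 to 1 in the comparisons of acupoint with control, hip needling with control and acupoint with hip needling. With the mouse number as a replicate block the count was 5 in hip needling minus MPTP and 0 in the others, the medians did not change, and none of the 8 genes gained a call.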
